A study of Mus musculus with 25 samples.

Results

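The expression of 7 genes, Lyz1, Lyz2, Ly6c2, Plac8, Hp, Chil3 and Vcan, was followed in macrophages and fibroblasts sorted from mouse lung and skin. The genes were chosen by name, as transcripts typical of monocytes or as lysozymes, with earlier results of these data known. Shares and medians over all genes are therefore set beside those of the members as a description only. All 7 were present in both expression tables, among 14405 genes measured in either. Lyz1 and Lyz2 are near-identical neighbours, so the sum of their values is given beside each of them.

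Lysozyme cuts the peptidoglycan of bacterial cell walls. Mice have a pair of lysozyme genes, Lyz2 of macrophages and other myeloid cells and Lyz1, best known from Paneth cells of the gut. Classical monocytes, which leave the bone marrow and enter tissues to become macrophages or dendritic cells, carry the surface antigen Ly6C, encoded in part by Ly6c2. They also hold transcripts of Plac8, a small cysteine-rich protein, and of Hp, haptoglobin, which binds free haemoglobin. Chil3 (Ym1) is a chitinase-like lectin made by alveolar and alternatively activated macrophages and by monocytes. Vcan, versican, is a large chondroitin sulfate proteoglycan of the extracellular matrix, made by fibroblasts and also by classical monocytes.

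The mice were C57BL/6. Depleted mice carried Mrp8_CRE and Rosa26_DTR, in which the promoter of Mrp8 (S100a8), active mainly in neutrophils and with known activity in some monocytes and myeloid precursors, drives Cre that permits expression of a diphtheria toxin receptor. Control mice were Mrp8_WT with Rosa26_DTR, and every mouse, control or depleted, received diphtheria toxin at 10 µg per kg into the peritoneum for 7 days. Ages were not among the labels used here. Lung gave 3 libraries each of control macrophages, depleted macrophages, control fibroblasts and depleted fibroblasts. In skin the macrophage libraries numbered 4 from depleted and 3 from control mice, and the fibroblast libraries 3 from each. The lung macrophages were interstitial by their gate (CD45+, CD68+, F4/80+, CD11c-, CD11b high), the skin macrophages were CD45+, CD11b+, CD68+ and F4/80+, and the fibroblasts were PDGFRA+ and lacked CD45, CD31 and EPCAM, with CD90.1 as an added marker in skin. No label says that replicates came from separate animals, and the p-values below therefore speak only of the scatter among these libraries, part of which may be technical.

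The lung libraries held 124075 to 385925 estimated reads and the skin libraries 6553115 to 27259903, so low genes are far less precise in lung. In lung 1 read adds 2.997 to 6.81 to a normalised value, and in skin 0.0371 to 0.162. Skin control macrophages 1 and skin control macrophages 5 lacked the profile of their label: Ptprc, which encodes CD45, was at 0.277 and 0.209 in them, and Cd68 at 0.390 and 0.905. In skin control macrophages 3, Ptprc was at 362 and Cd68 at 1887. The collagen gene Col1a1 was at 15309 and 28883 in the same pair, against 267 in control macrophages 3. The title of control macrophages 5 also holds MFIBRO, although its cell type label is macrophages. Both libraries of this pair are therefore kept apart below, and the skin macrophage comparison sets 4 depleted libraries against 1 control. In every lung macrophage library the gate genes Cd68, Ptprc, Adgre1 and Itgam were well above their level in the lung fibroblasts.

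Lyz1 and Lyz2 are shown in sequence because the closeness of the genes decides how far their values can be separated. Lyz1 (ENSMUSG00000069515) lies on the minus strand at chr10:117287797-117292868 and Lyz2 (ENSMUSG00000069516) at chr10:117277331-117282321 (GRCm38, GENCODE M21), with 5475 bases between them. Their transcripts were identical at 1211 of 1262 aligned bases (95.96%). The Lyz1 transcript holds 1203 stretches of 61 bases, the read length, and 121 of them (10.06%) also occurred in Lyz2. Of the 1256 in Lyz2, 121 (9.634%) were shared. Most reads of either gene could thus be told apart by at least 1 base. In lung macrophages, however, Lyz2 held 2414 to 5396 estimated reads a library and Lyz1 27.1 to 77.4. The Lyz1 values there can therefore depend strongly on how shared reads were split, which was not tested. The RefSeq start of Lyz2 lies inside the Lyz2 span given above. Of the 250 bases that RefSeq places before that start, 49 belong to the gene in the GENCODE model. These 49 bases were the same in both genes and are left off both stretches. The 201 bases before them follow (RefSeq, GRCm38.p6, minus strand, 5′ to 3′), at chr10:117292918-117293118 for Lyz1 and chr10:117282322-117282522 for Lyz2. Capitals mark bases that differ or have no partner in the alignment.
Lyz1: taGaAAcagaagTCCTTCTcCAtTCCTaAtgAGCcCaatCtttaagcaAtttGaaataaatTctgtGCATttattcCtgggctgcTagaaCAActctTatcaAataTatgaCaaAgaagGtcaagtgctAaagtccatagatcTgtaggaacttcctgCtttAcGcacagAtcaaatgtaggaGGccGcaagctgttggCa
Lyz2: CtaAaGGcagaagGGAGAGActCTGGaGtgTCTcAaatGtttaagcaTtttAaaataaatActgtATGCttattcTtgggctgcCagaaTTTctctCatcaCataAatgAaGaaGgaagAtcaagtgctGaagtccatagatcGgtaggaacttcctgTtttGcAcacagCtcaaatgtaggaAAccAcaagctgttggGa
These upstream stretches were identical at 151 of 199 aligned bases (75.88%), a lower share than in the transcripts.

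The other members lie on 5 further chromosomes, all on the minus strand: Ly6c2 (ENSMUSG00000022584) at chr15:75108158-75111970, Plac8 (ENSMUSG00000029322) at chr5:100553725-100572245, Hp (ENSMUSG00000031722) at chr8:109575128-109579172, Chil3 (ENSMUSG00000040809) at chr3:106147554-106167564 and Vcan (ENSMUSG00000021614) at chr13:89655312-89742509. Ly6c2 shared 204 of its 762 read-length stretches (26.77%) with Ly6c1, the paralogue expressed in endothelium and lymphocytes. Chil3 shared 333 of 1479 (22.52%) with other genes, most of them (195) with Chil4. Values of Ly6c2 and Chil3 can thus depend on how shared reads were split, which was not tested. These shares of stretches are not error bounds of the values. Plac8, Hp and Vcan shared none.

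**Figure D1:**
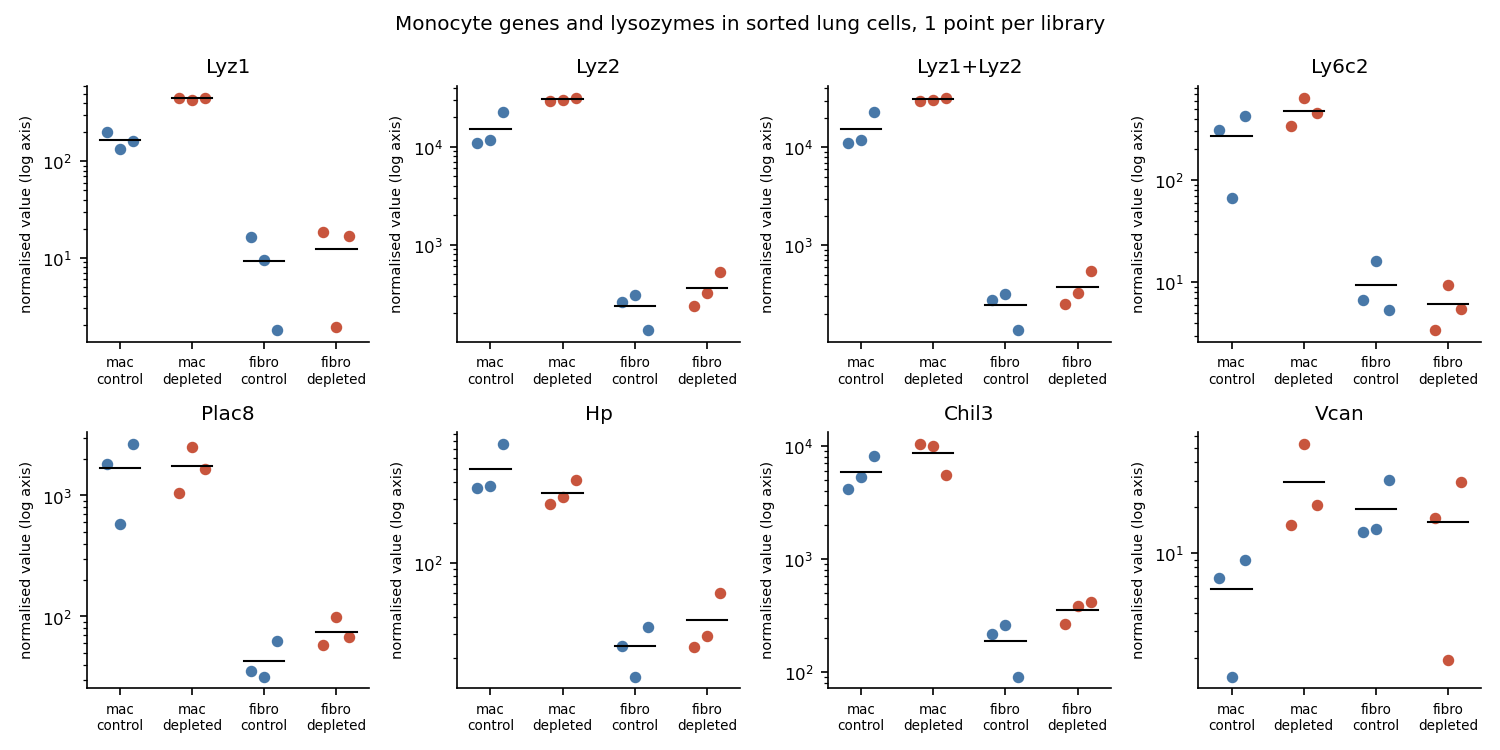
Normalised value (log axis, arbitrary units) of each gene and of the lysozyme sum in the 12 lung libraries. Points are libraries, blue for control and red for depleted mice, and black lines are means; libraries at 0 reads are drawn at their lowest value, which is the case for the lowest Lyz1, Ly6c2 and Vcan points. All 3 depleted macrophage libraries lie above all 3 controls for Lyz1, Lyz2, their sum and Vcan.

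In lung macrophages, lysozyme transcripts stood higher in depleted than in control mice, and among the 7 genes only Lyz1 passed the test across all genes. Lyz2, at a far higher level, moved in the same direction without passing. The classical monocyte antigen gene Ly6c2 and Vcan had positive fold changes that did not pass, and Plac8, Chil3 and Hp overlapped between the groups. Because these are bulk samples, fewer cells of a type and less RNA per cell cannot be told apart here.

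Lyz1 was at 203, 135 and 164 in control macrophages 1 to 3, which rested on 27.1 to 44.5 estimated reads a library. In depleted macrophages 1 to 3 it was at 459, 438 and 458, from 70.1 to 77.4 reads. All these estimates depend on how reads shared with Lyz2 were split. The depleted libraries were close to one another and each was above every control. The log2 fold change was 1.45 ± 0.26 (SE), with an adjusted p of 0.00118 (limma, Benjamini-Hochberg over 11867 genes). This made 1 of 7 members called, where 0.497% of all genes were called in either direction, 0.0674% as higher and 0.43% as lower. The call was lost without control macrophages 2 (adjusted p = 0.120), without control macrophages 3 (adjusted p = 0.0673), with no variance trend (adjusted p = 0.476) and in a model of all 4 lung groups (adjusted p = 0.503), while the fold change stayed between 1.30 and 1.59 when each library was left out in turn.

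Lyz2 was at 10917, 11815 and 22783 in control macrophages 1 to 3 and at 29530, 30122 and 31779 in depleted macrophages 1 to 3. Control macrophages 3 stood well above the other controls and below every depleted library, so the groups did not overlap. The log2 fold change was 1.09 ± 0.39 (SE; adjusted p = 0.365), and under quantile normalisation it was 0.70. The lysozyme sum averaged 15339 ± 6602 (SD, n = 3) in controls and 30929 ± 1169 in depleted libraries, which gave 1.09 ± 0.39 (SE) on the log2 scale with an adjusted p of 0.366. Counted as a share of the library total, the sum was 1.34% ± 0.549 in controls and 2.50% ± 0.194 in depleted libraries, a difference of 1.16 percentage points (p = 0.1 by an exact permutation test, two-sided; 3 against 3 cannot go lower).

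Lyz1 made up 1.83%, 1.13% and 0.714% of the lysozyme sum in control macrophages 1 to 3 and 1.53%, 1.43% and 1.42% in depleted macrophages 1 to 3. The exact 95% Clopper-Pearson intervals of these shares, which cover counting error only, ran from 1.30 to 2.39%, 0.824 to 1.51% and 0.461 to 1.02% in the controls. The controls therefore differed among themselves, with the lowest share in the library that held the most Lyz2. The mean share was 1.22% ± 0.561 (SD, n = 3) against 1.46% ± 0.0585, a difference of 0.239 percentage points (exact two-sided permutation test, p = 0.6). A shift of the balance between the pair of genes was not shown, although only Lyz1 was called.

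**Figure D2:**
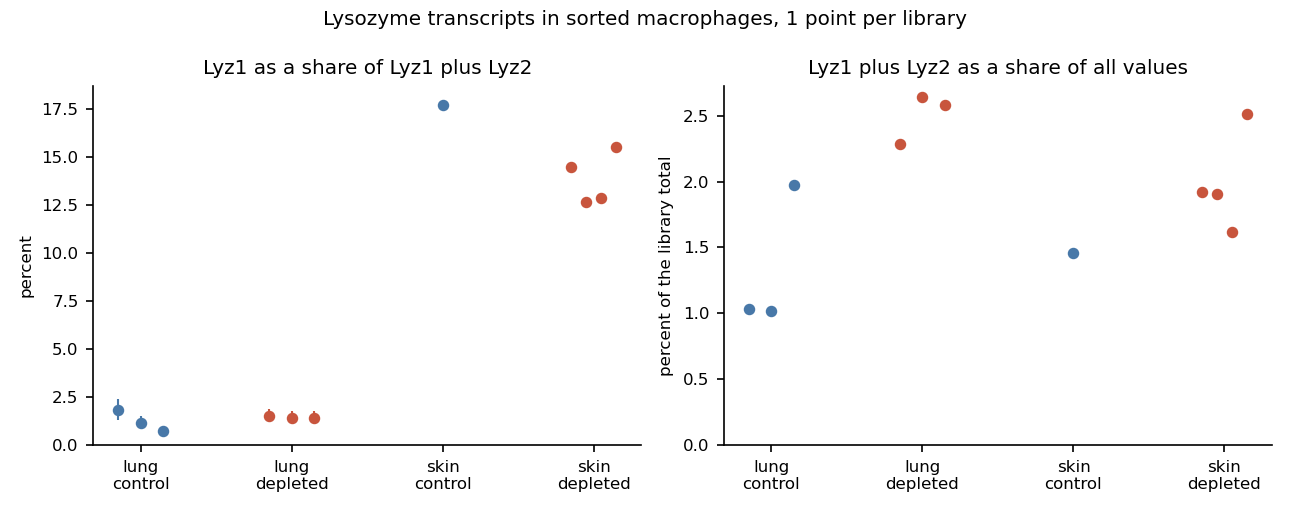
Left, Lyz1 as a percentage of Lyz1 plus Lyz2 in each macrophage library, with exact 95% intervals (counting error only); right, the lysozyme sum as a percentage of the library total. Blue is control and red is depleted, and the skin control is 1 library; the Lyz1 share was 0.714 to 1.83% in lung and 12.7 to 17.7% in skin.

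Ly6c2 was at 313, 67.1 and 429 in control macrophages 1 to 3 and at 336, 641 and 458 in depleted macrophages 1 to 3. The low control 2 set much of the difference, and the other controls lay inside or near the depleted range. The log2 fold change was 1.14 ± 0.37 (SE; adjusted p = 0.258). It was 0.33 (adjusted p = 0.812) without control macrophages 2, and it passed the threshold without depleted macrophages 1 (1.37, adjusted p = 0.0344). Plac8 was at 1805, 586 and 2657 in the controls and at 1055, 2535 and 1663 in the depleted libraries. Its groups overlapped throughout (log2 fold change 0.22 ± 0.33, adjusted p = 0.902), and control macrophages 2 was again the lowest library.

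Vcan was at 6.78, 1.498 and 8.91 in control macrophages 1 to 3, which stands for 0 or 1 read in each, and at 15.4, 52.7 and 20.6 in the depleted libraries, or 2 to 8 reads. Set against the total reads, 13 reads over the depleted libraries and 2 over the controls gave a ratio of 8.85 with an exact 95% interval of 2.003 to 80.8, which covers counting error only. The log2 fold change was 2.16 ± 0.86 (SE; adjusted p = 0.458). Each depleted library was above each control, as 6.21% of all genes also were. Of the 7 members, 3 (Lyz1, Lyz2 and Vcan) stood in that relation and none in the opposite one, which 6.02% of genes did. Lyz1 and Lyz2 are near-identical and share reads, and Vcan had 0 or 1 read in each control. These 3 are therefore not separate results, and the count is not read as a trait of the whole set.

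Chil3 was at 4137, 5353 and 8140 in the controls and at 10381, 10026 and 5510 in depleted macrophages 1 to 3. Depleted macrophages 3 fell within the control range, and the log2 fold change was 0.56 ± 0.32 (SE; adjusted p = 0.692). Hp was at 359, 376 and 763 in the controls and at 274, 307 and 415 in the depleted libraries, the 1 member with a negative fold change in these cells (-0.52 ± 0.28, adjusted p = 0.666). The median log2 fold change of the 7 members was 1.09, beside 0.04 over all genes tested. That median is the value of Lyz2 itself, with the near-identical Lyz1 counted as a separate member above it. It does not describe a shift of the whole set, since Plac8, Chil3 and Hp overlapped between the groups.

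**Figure D3:**
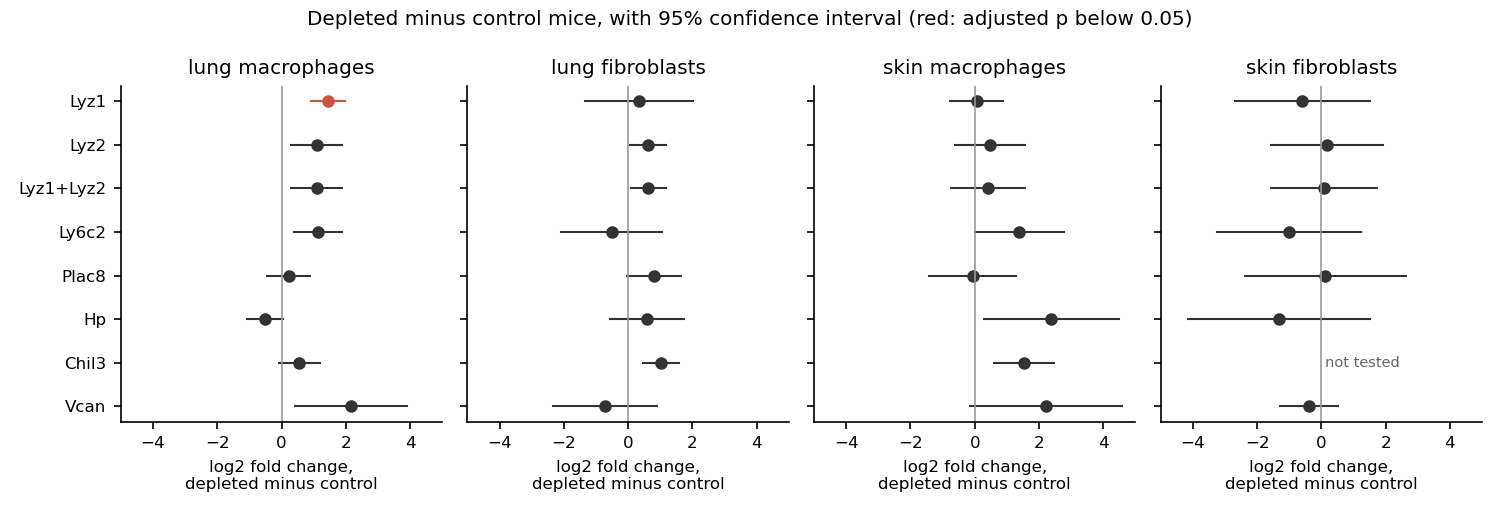
Log2 fold change of each gene and of the lysozyme sum, depleted minus control, with its 95% confidence interval, in the 4 sorted populations. Red marks an adjusted p below 0.05, which holds for Lyz1 in lung macrophages (1.45) and for no other gene shown; Chil3 was too low to be tested in skin fibroblasts, and the skin macrophage panel rests on 1 control library.

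A wider list of classical monocyte genes had no common direction, with 14 positive and 16 negative fold changes. Of the 30 measured genes, none was called higher and 4 were called lower, with a median log2 fold change of -0.03. Among them were Hdc (-2.53), the histamine-forming enzyme, Clec4d (-1.996), a C-type lectin receptor, and Csf3r (-2.24), the G-CSF receptor. These 3 are known from neutrophils as well, and Hdc also from mast cells and basophils. Ccr2, the chemokine receptor that brings monocytes out of the marrow, averaged 780 ± 86.7 (SD, n = 3) in depleted and 512 ± 29.8 in control libraries (log2 fold change 0.60 ± 0.24, adjusted p = 0.458); it lies outside the rule for named genes and was chosen after its values were seen.

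Genes of patrolling monocytes, the Ly6C-low cells that crawl along vessel walls, leaned the other way. Of 20 measured, 19 had a negative log2 fold change with a median of -0.63, while 52.3% of all genes were positive, and 1 was called lower, Pglyrp1 (-1.92), a peptidoglycan recognition protein also stored in neutrophil granules. Nr4a1, the nuclear receptor that these monocytes need, was at -1.05 ± 0.30 (SE; adjusted p = 0.138), Ace at -1.28 ± 0.40 (adjusted p = 0.223). Over the whole list the summed value was 3280 to 4582 in controls and 2611 to 2919 in depleted libraries, so that the groups did not overlap, the reverse of the lysozymes.

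Markers of other cells moved with these results in lung macrophages, and their part in the results was not tested. The neutrophil list had 10 of 16 measured genes called lower, among them S100a8 (-2.51) and S100a9 (-2.50), and its summed value was 10631 to 21399 in controls and 2435 to 2732 in depleted libraries. The lung epithelial list ran the other way, with all 18 genes positive and 4 called higher, among them Sftpa1 (1.32) and Sftpd (2.45); Sftpc was at 1.41 (adjusted p = 0.0803). Its sum was 2843 to 9890 in controls and 12334 to 27938 in depleted libraries. Of the controls, control macrophages 3 had the highest lysozyme sum, the lowest epithelial sum and the highest neutrophil sum. Lyz1 by itself was highest in control macrophages 1 (203) and stood at 164 in control macrophages 3. This concerns single libraries, and its bearing on the lysozyme difference was not tested. In the B cell list 2 of 9 measured genes were called lower and none higher, and 8 of 9 fold changes were negative. The sum of that list ran the other way, at 53141 to 100743 in controls and 92895 to 198944 in depleted libraries, and nearly all of it came from Cd74, the MHC class II invariant chain, which macrophages also express. Cd74 averaged 69858 ± 25430 (SD, n = 3) in control and 136970 ± 54819 in depleted libraries (log2 fold change 0.96 ± 0.58, adjusted p = 0.708). It lies outside the rule for named genes and is given because it made up nearly all of that sum. None of the alveolar macrophage list (18 genes, sums of 5388 to 6793 in controls and 4842 to 6520 in depleted libraries) or of the general macrophage list (16 genes, 13044 to 15771 and 14810 to 18494) was called. In control lung, 15 of the 18 alveolar genes were called higher in macrophages than in fibroblasts, where 12.2% of all genes were. Whether alveolar macrophages were among the cells of this interstitial gate was not tested. None of the markers in the neutrophil, epithelial and both macrophage lists that were in the table was at 0 reads throughout.

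**Figure D4:**
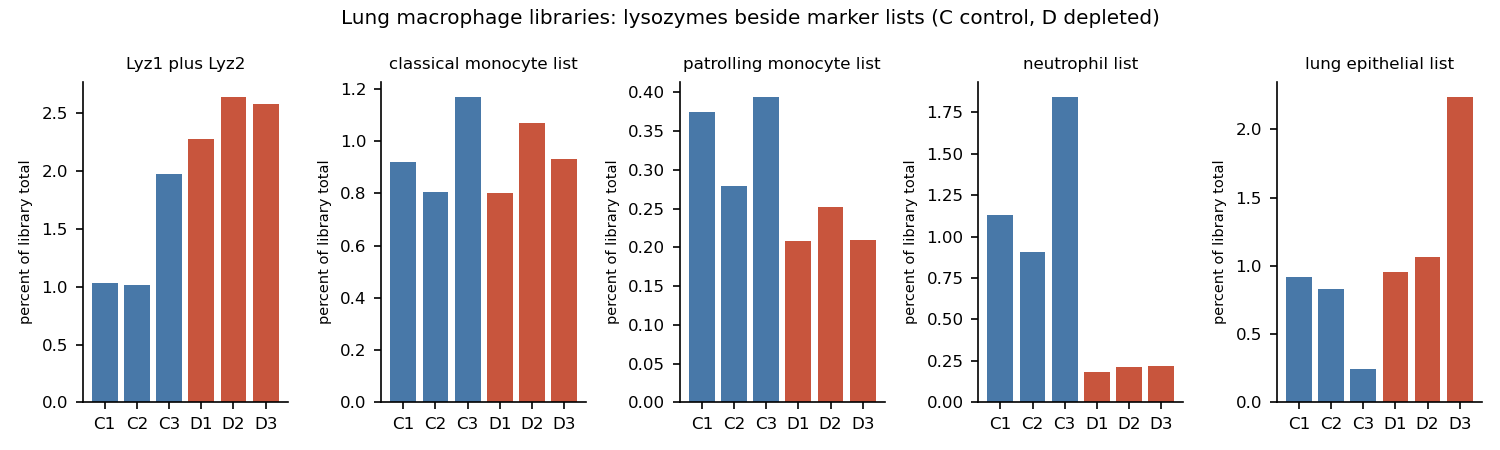
Lyz1 plus Lyz2 and the summed values of 4 marker lists, as a percentage of the library total, in control (C1 to C3, blue) and depleted (D1 to D3, red) lung macrophage libraries. The lysozymes reach 2.28 to 2.64% in depleted libraries against 1.02 to 1.98% in controls, while neutrophil markers reach 0.186 to 0.219% against 0.905 to 1.84%.

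Partners and relatives of the members gave no calls in lung macrophages. None of 13 measured relatives (other Ly6, chitinase-like, Plac and lectican genes) was called; Ly6c1, the near copy of Ly6c2, was at 0.93 ± 0.36 (SE; adjusted p = 0.445), and Chil4, the near copy of Chil3, at 0.85 ± 0.38 (adjusted p = 0.539). Of 10 measured genes of haemoglobin and haem handling, which act with haptoglobin, none was called; Cd163, the receptor for haptoglobin bound to haemoglobin, was at 0.52 ± 0.33 (adjusted p = 0.745). Of 10 measured genes that bind, build or cut the versican and hyaluronan matrix, 3 of which had no read (Adamts5, Adamts15 and Fbln2), none was called. Cd44, the hyaluronan receptor, had the lowest p of these, at -0.93 ± 0.24 (adjusted p = 0.0729).

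In lung fibroblasts none of the 7 genes was called, where the same test called 1 of 11867 genes (0.00843%) in all. Chil3 was at 215, 262 and 90.9 in control fibroblasts 1 to 3 and at 267, 387 and 417 in depleted fibroblasts 1 to 3. Every depleted library was above every control, as were 4.94% of genes, though depleted fibroblasts 1 exceeded control fibroblasts 2 only narrowly. The log2 fold change was 1.02 ± 0.28 (SE; adjusted p = 0.470), and Chil3 was called without control fibroblasts 2 (1.32, adjusted p = 0.0377).

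Lyz2 was at 262, 308 and 134 in the control fibroblasts and at 234, 321 and 525 in the depleted ones (log2 fold change 0.62 ± 0.28, adjusted p = 0.969), with overlap. The sum behaved alike (0.62 ± 0.28, adjusted p = 0.969). Plac8 was at 31.8 to 62.4 in controls and 57.9 to 99.1 in depleted libraries, and Hp at 14.4 to 33.9 and 23.8 to 60.4. Lyz1 and Ly6c2 rested on so few reads over each group (3.65 and 4.01 in controls, 6.56 and 3.01 in depleted libraries) that a difference was not detectable at this depth. Vcan, from 12 and 10 reads, was no better resolved (-0.73 ± 0.81, adjusted p = 0.987). The 1 gene called was the club cell secretoglobin Scgb1a1 (1.43, adjusted p = 0.0066), and the epithelial sum was 544 to 1964 in controls and 1797 to 5454 in depleted fibroblasts. The summed macrophage list was 122 to 234 in control and 136 to 250 in depleted fibroblasts. The part of these markers in the fibroblast values was not tested.

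Whether the difference between depleted and control mice was itself unlike in the lung populations was tested as an interaction. No member passed, where 0.0169% of 11867 genes did. The interaction, macrophage effect minus fibroblast effect, was 2.91 ± 1.11 (SE; adjusted p = 0.849) for Vcan, 1.64 ± 0.78 (adjusted p = 0.876) for Ly6c2 and 1.12 ± 0.84 (adjusted p = 0.922) for Lyz1. For the lysozyme sum it was 0.47 ± 0.40 (adjusted p = 0.930), with a 95% interval from -0.34 to 1.28. The call of Lyz1 in macrophages is thus not shown to be particular to them.

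**Figure D5:**
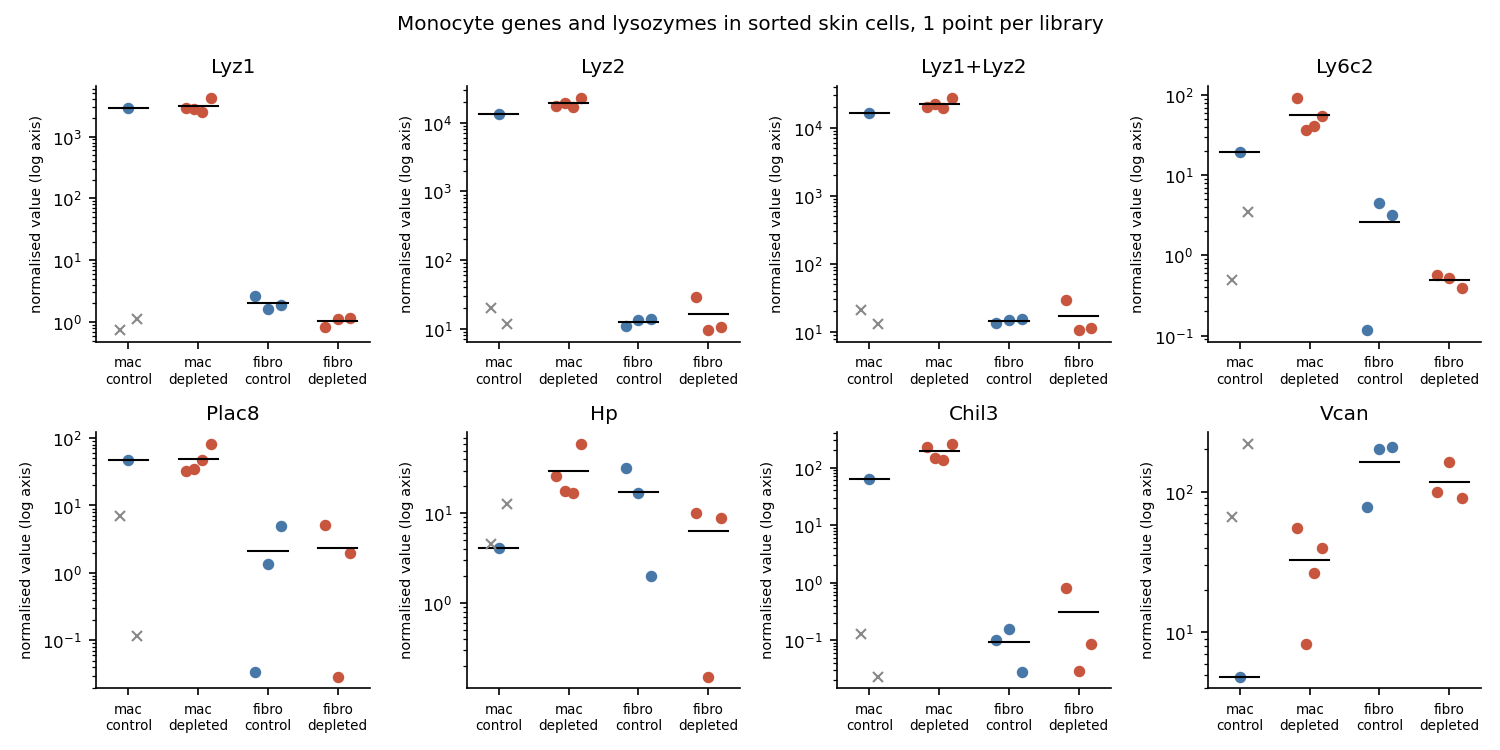
Normalised value (log axis, arbitrary units) of each gene and of the lysozyme sum in the 13 skin libraries. Points are libraries, blue for control and red for depleted mice, black lines are means, and grey crosses are the 2 control macrophage libraries kept apart; depleted macrophages lie above the single control for Chil3, Hp, Ly6c2, Lyz2 and Vcan.

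In skin macrophages 5 of the 7 genes, Chil3, Hp, Ly6c2, Lyz2 and Vcan, were higher in each of the 4 depleted libraries than in the 1 usable control, and none was called. With a single control this relation is common: 21.5% of 11490 genes lay above it in all depleted libraries and 25.1% below. The test called 0 genes (limma; 740 had an unadjusted p below 0.05), and the lone control is assumed to vary like the depleted libraries. Lyz1 and Plac8 lay around the control.

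Chil3 was at 63.6 in control macrophages 3 and at 231, 149, 135 and 255 in depleted macrophages 1, 2, 3 and 5 (log2 fold change 1.53 ± 0.42, adjusted p = 0.609). Ly6c2 was at 19.4 in the control and at 93.0, 36.2, 40.6 and 55.3 in the depleted libraries (1.39 ± 0.62, adjusted p = 0.771). Hp was at 4.12 in the control and at 26.3, 17.6, 16.9 and 59.1 in the depleted libraries (2.38 ± 0.94, adjusted p = 0.736). In lung macrophages Chil3 and Ly6c2 had positive fold changes as well, whereas that of Hp was negative, and none of these passed in either organ.

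Vcan was at 4.84 in the control, from 80 reads, and at 55.4, 8.22, 26.4 and 40.0 in the depleted libraries (2.22 ± 1.05, adjusted p = 0.778). Depleted macrophages 2 was close to the control, so the depleted libraries spread widely among themselves. Plac8 was at 47.6 in the control and at 32.3, 34.7, 47.4 and 81.2 in the depleted libraries (-0.06 ± 0.60, adjusted p = 0.986).

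Lyz2 was at 13618 in the control and at 17412, 19139, 16748 and 23224 in the depleted libraries (0.48 ± 0.48, adjusted p = 0.875). Lyz1 was at 2930 in the control and at 2951, 2780, 2480 and 4271 (0.06 ± 0.36, adjusted p = 0.974), and the sum gave 0.41 ± 0.51 (adjusted p = 0.889). Lyz1 made up 17.7% of the sum in the control and 12.7 to 15.5% in the depleted libraries. That share was 0.714 to 1.83% in lung macrophages. A share within a library does not depend on the scaling, but it does depend on how shared reads were split between the genes. Gates and read depth also differed between the organs. The shares are therefore only set side by side and were not tested across tables.

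The libraries kept apart showed what including them does. In control macrophages 1 and 5, Lyz1 was at 0.736 and 1.10, Lyz2 at 20.0 and 11.8, Ly6c2 at 0.491 and 3.53 and Chil3 at 0.130 and 0.0232. Vcan was at 66.2 and 218 there, Plac8 at 7.08 and 0.116 and Hp at 4.59 and 12.8. With all 3 controls as labelled, the log2 fold change of the sum was 7.01 (adjusted p = 0.0989), of Chil3 5.40, of Ly6c2 3.34 and of Plac8 2.58, and that of Vcan turned to -0.68; no member was called.

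The wider classical monocyte list in skin macrophages had 28 measured genes, none called, with a median log2 fold change of 0.10 beside -0.12 over all genes. Its genes of lowest p were Fn1 (1.20 ± 0.29, adjusted p = 0.600), the gene of fibronectin, Ccr2 (1.03 ± 0.32, adjusted p = 0.640), Sirpb1c (1.02 ± 0.36, adjusted p = 0.686) and F10 (1.503 ± 0.61, adjusted p = 0.744), the gene of coagulation factor X. Ccr2 averaged 1634 ± 321 (SD, n = 4) in depleted libraries and was at 788 in the control. The median of the patrolling list was -0.04 over 19 genes. Some marker lists of other skin cells were higher in the control library. The fibroblast list summed to 2802 there against 456 to 1944 in depleted libraries. The keratinocyte list summed to 7048 against 1567 to 4034 and the mast cell list to 396 against 11.03 to 110. Within the depleted range lay the endothelial list (72.8 against 48.4 to 87.5) and the T and NK cell list (330 against 125 to 335). The neutrophil list summed to 348 in the control and 186 to 341 in the depleted libraries. Of the 10 measured genes of haemoglobin and haem handling, 7 had a negative and 3 a positive log2 fold change (median -0.74), none was called, and the sum was 1342 in the control and 1034 to 1091 in the depleted libraries. The 4 globin genes had the largest differences of this list, in the direction opposite to Hp. Hbb-bs was at 125 in the control and averaged 10.0 ± 17.9 (SD, n = 4) in the depleted libraries (-4.96 ± 1.84 SE, adjusted p = 0.701). Hba-a1 was at -4.64 ± 1.799 (adjusted p = 0.721), Hba-a2 at -4.55 ± 1.92 (adjusted p = 0.760) and Hbb-bt at -3.10 ± 0.98 (adjusted p = 0.640). The part of these cells and transcripts in the differences, that of Hp included, was not tested.

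In skin fibroblasts no member was called, and neither was any of 12056 genes (limma; 280 had an unadjusted p below 0.05). Of the 7 genes, 6 were high enough to be tested; Chil3 was left out with 4 reads over the controls and 12 over the depleted libraries. Lyz1 was at 2.65, 1.60 and 1.90 in control fibroblasts 3, 4 and 5 and at 0.840, 1.10 and 1.17 in depleted fibroblasts 2, 4 and 5, so that every depleted library was below every control, as were 4.12% of genes (log2 fold change -0.59 ± 0.96, adjusted p = 0.957). The other members overlapped between the groups. Vcan, the member most abundant here, was at 78.0, 200.1 and 209 in controls and at 100.2, 163 and 89.8 in depleted libraries (-0.38 ± 0.41, adjusted p = 0.951). Hp ranged from 2.01 to 32.4 in controls and from 0.151 to 10.0 in depleted libraries, and Ly6c2 from 0.117 to 4.47 and from 0.392 to 0.572. Marker lists moved here without any gene being called. In the fibroblast list 15 of 16 fold changes were negative (median -0.49), with sums of 99156 to 129249 in controls and 69019 to 91817 in depleted libraries. In the keratinocyte list all 11 measured genes were positive (median 0.87), with sums of 2938 to 4062 in controls and 1234 to 15956 in depleted libraries. The macrophage list summed to 35.2 to 48.6 in controls and 21.1 to 61.8 in depleted libraries. The part of these markers in the values of Lyz1 and the other members was not tested.

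Set against fibroblasts of the same organ and genotype, Lyz1, Lyz2, Ly6c2, Plac8 and Chil3 were called higher in macrophages in each of the 3 comparisons made, control lung, depleted lung and depleted skin. Hp was called higher in both lung comparisons and was not called in depleted skin, and Vcan was called higher in none. In control lung, 6 of 7 members were called higher in macrophages, where 12.2% of 11867 genes were higher and 23.2% called in either direction, with log2 fold changes of 6.01 for Lyz2, 5.06 for Plac8, 5.02 for Chil3, 4.47 for Ly6c2, 4.38 for Lyz1 and 4.29 for Hp (adjusted p from 5.06e-12 to 5.86e-06). Vcan, from 2 reads over the macrophages and 12 over the fibroblasts, was at -1.73 ± 0.74 (SE; adjusted p = 0.0998). In depleted lung the same 6 were called higher, beside 12.5% of genes (23% in either direction), from 6.48 for Lyz2 down to 3.19 for Hp, and Vcan was at 1.18 ± 0.80 (adjusted p = 0.318).

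In depleted skin the lysozymes separated the populations most, at 10.5 for Lyz1 and 10.3 for Lyz2, followed by Chil3 (7.17), Ly6c2 (5.14) and Plac8 (4.12). These 5 were called higher in macrophages, beside 10.8% of 12460 genes (22.8% in either direction), and Hp was at 2.43 ± 0.89 (adjusted p = 0.0754). Vcan was called lower in macrophages, as were 12% of genes, at -2.05 ± 0.58 (adjusted p = 0.0265). That call was lost without depleted macrophages 3 or without any 1 of the 3 fibroblast libraries (adjusted p from 0.0538 to 0.0911). The 6 genes called in lung also had reads in the lung fibroblasts, Lyz2 and Chil3 most; the summed macrophage list in those libraries was 122 to 250, and its part in these values was not tested.

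Per kilobase of transcript, the level of Lyz2 was the highest of the members in every macrophage group. In control lung macrophages the order was Lyz2 at 11528 ± 5020 (SD, n = 3) units per kilobase, Chil3 at 3818 ± 1333, Plac8 at 1375 ± 851, Hp at 371 ± 170, Ly6c2 at 328 ± 225, Lyz1 at 132 ± 27.0 and Vcan at 0.461 ± 0.307. From Plac8 down to Lyz1, neighbours in this order differed by less than the sum of their SDs. In depleted lung macrophages Lyz2 (23159 ± 886), Chil3 (5613 ± 1765) and Plac8 (1431 ± 608) led again, and Lyz1 (358 ± 9.22) stood above Hp (247 ± 54.9) and below Ly6c2 (582 ± 187), each gap being larger than the sum of the SDs. In depleted skin macrophages Lyz1 was second to Lyz2, at 2471 ± 627 against 14537 ± 2210 (n = 4), and Chil3 (125 ± 38.8), Ly6c2 (68.5 ± 31.4), Plac8 (39.9 ± 18.4), Hp (22.3 ± 14.8) and Vcan (2.62 ± 1.62) followed, with neighbours from Chil3 down to Hp within the sum of their SDs. Tables of the organs were normalised separately, so levels are ordered within an organ only.

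Across the 6 lung macrophage libraries, which share a gate and fall into the control and depleted groups, the members varied in more than one pattern. Pearson's r of log2 values, given as a description, was 0.89 between Ly6c2 and Plac8, 0.81 between Lyz1 and Lyz2 and 0.74 between Chil3 and Lyz2, whereas Hp and Lyz1 gave -0.55. Among 1473 other genes with at least 20 reads a library on average, those most like Ly6c2 were Napsa (0.99), an aspartic protease also in the epithelial list, Mrpl18 (0.99) and Ms4a4c (0.99), a membrane protein gene in the classical monocyte list. Most like Plac8 were Rpl23a-ps3 (0.99), Cd52 (0.97) and Lims1 (0.97), and most like Chil3 were Smpdl3a (0.96), Ube2v1 (0.96) and Gsto1 (0.95). Lyz2 was most like Atp5h (0.99), Aprt (0.97) and Kxd1 (0.97), Lyz1 like Rpl14 (0.97), Selenow (0.96) and Rps27l (0.95), and Hp like Hcls1 (0.97), Myl12b (0.96) and Selenok-ps1 (0.95). With 6 libraries and so many genes, high values of r are common.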

How the data were processed

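RNA-seq of 25 sorted-cell libraries was used. The submitters' processing notes name limma 3.46, RSEM 1.7.1, cutadapt 1.7.1 and CASAVA 1.8 and the build mm10, and give no roles. The authors deposited normalised values per gene for lung and for skin, used here as a linear signal; the normalisation method is not given in the sources used here. Within a library the signal equals a constant times the estimated reads plus 0.5, from which reads were recovered; as few as 27.4% of them were whole (tolerance 0.01), so no count model was used.

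Gene symbols were matched for 11829 lung and 12641 skin genes (38 and 20 unmatched), and coordinates and transcripts are from GENCODE M21 (GRCm38). Genotype and cell type labels set the groups. For each comparison, limma 3.58.1 (R 4.3.3; two-sided, with a variance trend) was run on log2(value + pseudocount), the pseudocount being 1 ppm of the mean library total (1.042 in lung, 1.001 in skin), over genes averaging at least 1 ppm. A gene was called when its p, adjusted by Benjamini-Hochberg over all genes, was under 0.05. On this scale the changes of low genes are understated. Fits were tested on simulated data. The lysozyme sum replaced both genes in a refit. Shares were tested by exact permutation (scipy 1.17.1). Alternatives covered pseudocount, filter, scaling, variance trend, groups fitted, replicate block and leaving out each library. Named are all members, up to 4 genes of lowest p per list, the neutrophil and surfactant genes S100a8, S100a9, Sftpc, Sftpa1 and Sftpd, and near copies. Genes of the sorting gates, Col1a1, listed genes with no read and the genes most like a member are named as well. Other exceptions are marked. A single gene covered by this rule is not reported here. The members and lists were chosen with earlier results of these data known.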

Additional observations from a re-analysis of the deposited data

Results flagged for a closer look

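Vcan in skin control macrophages 5, a library kept out of the comparisons, was at 218, above the highest value in the other skin control libraries (209, in a control fibroblast library). It was noted because it is a signal in a library that the comparisons do not use. Its Col1a1 was at 28883 and its Cd68 at 0.905. Among the 8 sets of 4 depleted skin macrophage values examined for a library far from the others (the 7 genes and the sum), none stood out; chance marks about 1 in 20 such sets.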

How the results depend on the processing

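Against 59 genes called in lung macrophages, 38 were called with a pseudocount of 10 ppm, 27 with quantile normalisation, 0 with no variance trend and 18 in the model of all groups. Members called there, 1, became 0 with no variance trend, 0 with all groups and 2 with the replicate block, under which Ly6c2 had an adjusted p of 0.0392. For lung fibroblasts 1 gene became 0 with a filter of 20 ppm, quantile normalisation, no trend or all groups, and 4 with the block. For skin fibroblasts 0 became 69 with the block. For skin macrophages, with 1 control library, 0 became 63 with no filter and 2 with quantile normalisation. The interaction count of 2 became 12 with a pseudocount of 10 ppm, 1 with quantile normalisation and 0 with no trend. The cause was not tested. With each library left out in turn, calls ranged from 11 to 68 in lung macrophages (members 0 to 2), 0 to 7 in lung fibroblasts (members 0 to 1), 0 to 16 in skin fibroblasts, 1 to 6 for the interaction and 5 to 6 members for skin macrophages against fibroblasts.

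Signs turned for members far from the threshold. In skin fibroblasts the replicate block gave -0.40 for Lyz2, -1.14 for Plac8 and -0.42 for the sum. With each library left out, these ran from -0.30 to 0.45, -0.52 to 0.84 and -0.37 to 0.33, negative without depleted fibroblasts 2 and, for Plac8, also without control fibroblasts 3. Plac8 in lung macrophages ran from -0.41 to 0.68, negative without depleted or control macrophages 2. In lung fibroblasts Lyz1 ran from -0.44 to 1.24, negative without depleted 1, depleted 3 or control 3, and Vcan from -1.42 to 0.29, positive without depleted 2. In skin macrophages Plac8 ran from -0.33 to 0.10, positive without depleted 1 or 2, and Lyz1 from -0.10 to 0.16, negative without depleted 5; as labelled, Plac8 was 2.58 and Vcan -0.68. Under quantile normalisation the interaction was -0.086 for Lyz2 and -0.074 for the sum. In depleted skin, Hp reached an adjusted p of 0.0132 with quantile normalisation and Vcan 0.0667 with no trend. The Lyz1 share difference ranged from -0.0154 to 0.540 percentage points.

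Deviations of same-numbered libraries from their group means correlated at -0.082 to 0.163. The highest value was between depleted skin macrophages 5 and depleted skin fibroblasts 5. With so few libraries a group, such correlations cannot decide whether a shared number marks a shared animal or batch. No label used here says so, and the block is given in this part only. No paired analysis was possible for skin macrophages because the groups share fewer than 2 numbers once 2 controls are kept apart. Lung depth limits Vcan, and Lyz1 and Ly6c2 in fibroblasts.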
